A study of Homo sapiens with 16 samples.

Results

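The class I and class II histone deacetylases are zinc-dependent enzymes, and trichostatin A (TSA) is an inhibitor of histone deacetylases. The mRNA of these enzymes was followed here in HCT116 and RKO colon cancer cells. How strongly TSA inhibits each enzyme was not measured. The 10 genes HDAC1 to HDAC10 were taken by their symbol in the platform annotation, which gave 10 of the 19775 genes that have a probe set with 1 symbol, and 24 of the 54675 probe sets on the array. HCT116 and RKO are established human colon cancer lines. Each line was left as a control or treated for 3 days with 0.5 µM 5-aza-dC, a nucleoside that blocks DNA methyltransferases, with 150 nM TSA, with PJ-34, an inhibitor of poly(ADP-ribose) polymerase, with each pair of drugs, or with all 3 drugs. PJ-34 was given at 3 µM to HCT116, while for RKO the study states 2 µM in one place and 3 µM in another. RNA of each condition was hybridized to 1 array, so there were 8 arrays per line and 16 in all, with no repeat of any condition. A drug effect within a line therefore compared 4 arrays with the drug against 4 without it, and the lines were compared as 8 arrays against 8. Nothing states that the arrays came from separate cultures, so p-values measure the spread between these arrays, which may be partly technical. With no repeat of a condition, that spread also holds any joint effect of drugs that the fit has no term for.

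These enzymes remove acetyl groups from lysines of histones and other proteins. HDAC1 and HDAC2 are the paired catalytic subunits of the SIN3, NuRD and CoREST repressor complexes, HDAC3 is that of the NCoR and SMRT complex, and HDAC8 acts outside these complexes, with the cohesin subunit SMC3 as a known substrate. The class IIa enzymes HDAC4, HDAC5, HDAC7 and HDAC9 bind MEF2 transcription factors and leave the nucleus with 14-3-3 proteins after phosphorylation, HDAC6 deacetylates tubulin in the cytoplasm, and HDAC10 deacetylates polyamines. TSA binds the zinc ion in the active site of the deacetylases it inhibits. Sirtuins, which form class III, use NAD in place of zinc.

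The arrays were alike in quality. Median signals were 160 to 210 in HCT116 and 152 to 202 in RKO, and log2 signals correlated at 0.933 to 0.968 within a line and at 0.868 to 0.901 between the lines. All 5 epithelial marker genes averaged at least 100 in HCT116 (summed signal 169040 to 255513), while CDH1 and KRT19 did not in RKO (summed signal 18802 to 20906), and of 4 leukocyte and 4 endothelial markers 1 each did in either line. Of the 5 intestinal markers, CDX1 and CDH17 were under 100 on average in both lines, as was LGALS4 in RKO. Mesenchymal markers, of which 5 of 7 averaged at least 100 in HCT116 and 2 of 7 in RKO, summed to 1992 to 14519 and 2875 to 41145. On 2 RKO arrays the signals went against the labels. Over the 238 probe sets that 5-aza-dC raised in HCT116, the RKO array labelled PJ-34 lay at a median log2 of 0.54 above the RKO control and the array labelled PJ-34/5-aza-dC at 0, whereas the RKO arrays labelled 5-aza-dC, 5-aza-dC/TSA and PJ-34/5-aza-dC/TSA lay at 0.55 to 0.71 and those labelled TSA and PJ-34/TSA at 0.06 to 0.09. These are called the 2 disputed RKO arrays below. Neither carries TSA in its label, so both stood on the side without TSA. Values in RKO and over both lines take in all arrays unless it is said that these 2 were left out.

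Start regions are shown for the paralogs HDAC1 and HDAC2, both higher in HCT116, and for HDAC9, higher in RKO. The enzymes that 5-aza-dC blocks methylate cytosines in CpG dinucleotides, which are counted here. A link between these regions and the signals of the genes was not tested. The sequences are the 250 bases before the RefSeq start (GRCh38.p14), 5′ to 3′ on the gene's strand, with GC boxes (GGGCGG or CCGCCC) and CCAAT boxes (CCAAT or ATTGG) in capitals.
HDAC1, chr1:32291833-32292082, plus strand: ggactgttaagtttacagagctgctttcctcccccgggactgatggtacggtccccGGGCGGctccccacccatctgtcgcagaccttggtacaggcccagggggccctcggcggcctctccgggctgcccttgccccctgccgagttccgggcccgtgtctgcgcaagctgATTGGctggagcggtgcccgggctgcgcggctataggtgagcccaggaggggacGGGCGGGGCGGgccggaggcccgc
HDAC2, chr6:113971149-113971398, minus strand: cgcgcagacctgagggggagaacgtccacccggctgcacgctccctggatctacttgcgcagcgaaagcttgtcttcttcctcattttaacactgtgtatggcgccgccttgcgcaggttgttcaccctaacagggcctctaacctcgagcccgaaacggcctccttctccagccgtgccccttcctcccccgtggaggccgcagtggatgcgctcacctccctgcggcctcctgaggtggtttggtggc
HDAC9, chr7:18086575-18086824, plus strand: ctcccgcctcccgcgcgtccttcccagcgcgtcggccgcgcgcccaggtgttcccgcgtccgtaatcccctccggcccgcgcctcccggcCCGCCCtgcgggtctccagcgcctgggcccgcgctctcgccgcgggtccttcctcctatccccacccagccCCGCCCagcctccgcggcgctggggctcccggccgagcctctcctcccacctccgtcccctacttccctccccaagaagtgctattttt
The HDAC1 window held 21 CpG dinucleotides, 3 GC boxes, of which the last pair overlap, and 1 CCAAT box. The HDAC2 window held 18 CpG dinucleotides and neither box, and the HDAC9 window held 32 CpG dinucleotides and 2 GC boxes. Of all 35116 such windows in the table, 42.6% held a GC box and 32.0% a CCAAT box on either strand, and the median number of CpG dinucleotides was 11. Windows were found for 9 of the 10 genes, HDAC5 being the other one, and the outermost listed window of each gene held between 7 CpG dinucleotides (HDAC8) and 35 (HDAC10). HDAC9 has further listed starts inside the gene, with 0 to 4 CpG dinucleotides each. These letters are a description of the reference and not of the treated cells.

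The first comparison asked how the mRNA of the deacetylases differed in level between the lines. The 10 genes split in both directions. By their brightest probe set, HDAC1, HDAC2, HDAC4, HDAC5 and HDAC6 were higher in HCT116, HDAC7, HDAC8 and HDAC9 were higher in RKO, and HDAC3 and HDAC10 did not pass the test. Of the 24 probe sets, 22 reached the signal required for testing (at least 100 on at least 4 arrays), and 12 of these 22 had an adjusted p under 0.05 in limma, 8 of them higher in HCT116 and 4 in RKO. Among the 8, HDAC6 216224_s_at reached that signal on HCT116 arrays only. Over all 42119 probe sets tested, 43.8% passed (21.1% were higher in HCT116, 22.8% in RKO), so that differences of this kind were common between the lines. The arrays of the lines did not overlap for 8 of the 22, against 19.7% of all probe sets tested. The median log2 difference over the 10 genes was 0.30 (HCT116 minus RKO), against -0.01 over all probe sets tested. All signals are relative to the same total per array, and since the RNA came from whole cultures, fewer cells that express a gene and less RNA per cell cannot be told apart.

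**Figure D1:**
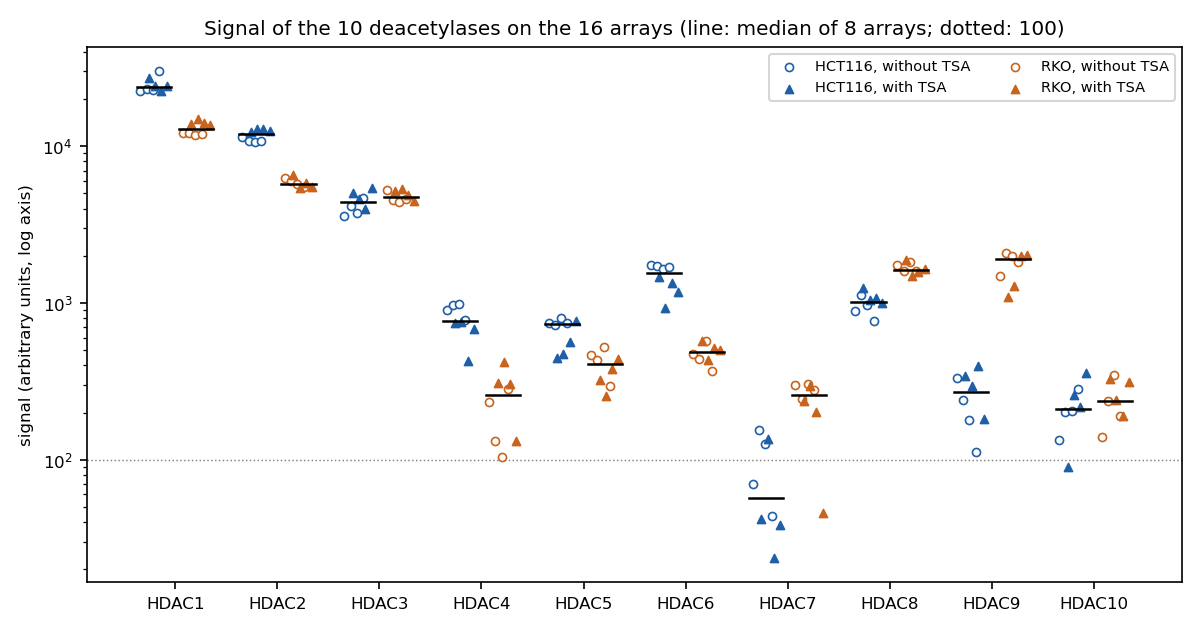
Signal of the brightest probe set of each gene on all 16 arrays, on a log axis in arbitrary units, with HCT116 in blue, RKO in orange, open circles for arrays without TSA, triangles for arrays with TSA, black bars for the median of 8 arrays and a dotted line at 100. The lines are apart for HDAC1, HDAC2, HDAC4, HDAC6, HDAC8 and HDAC9 and overlap for HDAC3, HDAC5, HDAC7 and HDAC10, and heights can be compared within a gene but not between genes, since probe sets differ in brightness.

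Among the class I enzymes, HDAC1 (201209_at) ran from 22436 to 30058 in HCT116 (median 23729) and from 11751 to 14910 in RKO (median 12975). Every HCT116 array was above every RKO array, and the fitted difference was 1.88-fold (log2 0.91, SE 0.07, adjusted p = 1.48e-08). HDAC2, the close paralog of HDAC1, behaved likewise at its brighter probe set (201833_at), with 10602 to 12849 in HCT116 (median 11904) and 5389 to 6520 in RKO (median 5778). Its fitted difference was 2.01-fold (log2 1.01, SE 0.06, adjusted p = 1.71e-09), and the lines did not overlap. The dimmer HDAC2 probe set (242141_at) gave 188 to 737 in HCT116 and 301 to 573 in RKO, with a log2 difference of 0.01 (95% interval -0.42 to 0.45). The probe sets of HDAC2 therefore did not give the same difference.

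HDAC3 (216326_s_at) lay at 3577 to 5384 in HCT116 (median 4384) and at 4384 to 5347 in RKO (median 4751). Its log2 difference of -0.15 had a 95% interval of -0.31 to 0.01 (adjusted p = 0.115), which does not reach the size seen at HDAC1 or at the brighter HDAC2 probe set. The RKO range lay inside the HCT116 range, which reached further down, and RKO was higher in 6 of 8 matched conditions.

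HDAC8 had 3 probe sets that did not point one way. At 223909_s_at the signal was 765 to 1253 in HCT116 (median 1019) and 1486 to 1886 in RKO (median 1626), a difference of 1.66-fold toward RKO (log2 -0.73, SE 0.11, adjusted p = 4.35e-05). At 223908_at it was 87.9 to 543 in HCT116 (median 302) and 600 to 939 in RKO (median 854), 3.04-fold higher in RKO (log2 -1.60, SE 0.19, adjusted p = 3.93e-06). At 223345_at the lines overlapped, with 982 to 1731 in HCT116 (median 1324) and 728 to 1322 in RKO (median 961), and the difference ran the other way, 1.33-fold higher in HCT116 (log2 0.41, SE 0.11, adjusted p = 0.00734). The first 2 probe sets showed every RKO array above every HCT116 array. Probe set 223345_at lost its call when the 2 disputed RKO arrays were left out (log2 0.26, adjusted p = 0.200).

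**Figure D2:**
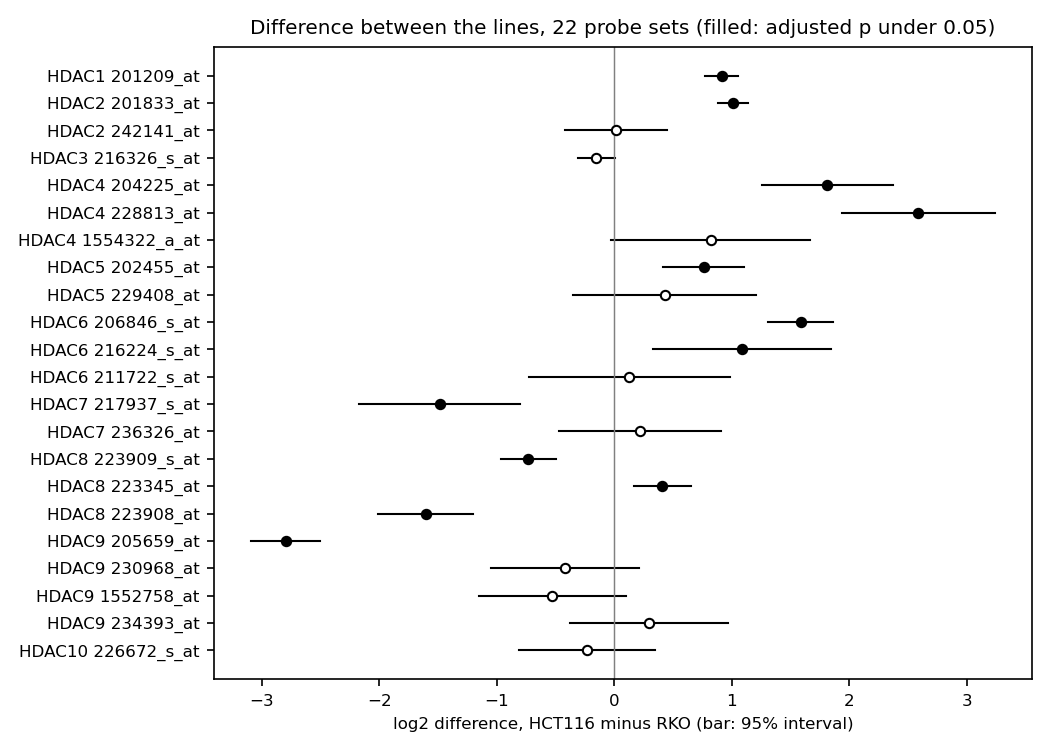
Log2 difference between the lines (HCT116 minus RKO) for the 22 probe sets tested, with 95% intervals from limma over 16 arrays and filled points for an adjusted p under 0.05. HDAC9 205659_at lies at -2.80 and HDAC4 228813_at at 2.59, and the HDAC8 probe sets lie on both sides of 0.

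The class IIa enzymes carried the widest differences in both directions. HDAC4 at 204225_at was 429 to 982 in HCT116 (median 765) and 104 to 420 in RKO (median 259), 3.51-fold higher in HCT116 (log2 1.81, SE 0.26, adjusted p = 3.26e-05). At 228813_at it was 306 to 874 in HCT116 (median 496) and 18.8 to 148 in RKO (median 82.0), 6.01-fold higher in HCT116 with signals under 50 set to 50 (log2 2.59, SE 0.30, adjusted p = 3.75e-06). Both probe sets kept the lines fully apart. The last HDAC4 probe set (1554322_a_at) lay at 19.1 to 383 over both lines and did not pass (log2 0.82, adjusted p = 0.114).

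HDAC9 went the other way and had the smallest p of the 22 probe sets. At 205659_at it was 111 to 394 in HCT116 (median 269) and 1086 to 2086 in RKO (median 1906). It was 6.95-fold higher in RKO (log2 -2.80, SE 0.14, adjusted p = 1.48e-10), with every RKO array above every HCT116 array. In the untreated controls alone it read 333 in HCT116 and 1488 in RKO. The other HDAC9 probe sets were dim, the highest signal being 201, and the 3 of them that were tested did not pass (adjusted p = 0.169 to 0.503). The HDAC9 difference therefore rests on 205659_at. Which transcript forms of HDAC9 each probe set reports, and whether these encode an active enzyme, was not tested.

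HDAC5 (202455_at) was 448 to 797 in HCT116 (median 730) and 257 to 524 in RKO (median 408), 1.69-fold higher in HCT116 (log2 0.76, SE 0.16, adjusted p = 0.00120). It was higher in HCT116 in each of the 8 matched conditions, although the ranges overlapped. HDAC7 (217937_s_at) was 23.6 to 155 in HCT116 (median 56.8), under 100 on 5 of 8 arrays, and 45.9 to 306 in RKO (median 260), fitted as 2.80-fold higher in RKO (log2 -1.49, SE 0.32, adjusted p = 0.00122) after the signals under 50, on 4 HCT116 arrays and 1 RKO array, were set to 50. The size of this difference depends on that floor, with log2 -1.71 at a floor of 20 and -1.05 at a floor of 100. One RKO array, all 3 drugs, gave the 45.9 and the other 7 were at 202 or more. The dimmer probe sets of both genes did not pass (HDAC5 229408_at, log2 0.43, adjusted p = 0.382, and HDAC7 236326_at, log2 0.22, adjusted p = 0.644). The HDAC7 call was lost without the 2 disputed RKO arrays (log2 -1.13, adjusted p = 0.0514).

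Of the class IIb enzymes, HDAC6 (206846_s_at) was 925 to 1756 in HCT116 (median 1564) and 367 to 572 in RKO (median 489), 3.00-fold higher in HCT116 with no overlap (log2 1.58, SE 0.13, adjusted p = 7.27e-08). A dimmer HDAC6 probe set (216224_s_at) passed in the same direction (log2 1.09, SE 0.36, adjusted p = 0.0211) and lost its call under 5 alternatives. It read 47.6 to 304 in HCT116 and 29.0 to 70.2 in RKO, where 5 arrays were under 50 and set to 50. It reached 100 on 4 HCT116 arrays and 0 RKO arrays. It was therefore tested only because of the line where it is higher, and its size depends on the floor. The last HDAC6 probe set (211722_s_at) did not pass (log2 0.13). HDAC10 (226672_s_at) was 89.6 to 357 in HCT116 and 139 to 345 in RKO (log2 -0.23, 95% interval -0.81 to 0.35, adjusted p = 0.542). Its other probe set (232870_at) was too dim to be tested.

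The second comparison asked whether TSA changed the mRNA of the deacetylases. No probe set of the 10 genes passed the test in either line. In HCT116, 0 of 18 probe sets tested were called by limma, while 8.99% of all 35373 were (4.16% higher and 4.83% lower with TSA). The share of all fell to 0.591% with no filter on low signals and to 0% with no variance trend in the fit, where the count of members was 0 as well. An unadjusted p under 0.05 was reached by 5 of the 18, against 24% of all. In RKO 0 of 17 were called, but so were only 2 of 33862 probe sets in all (0.00591%), and 2 of the 17 had an unadjusted p under 0.05, against 12.3%. Over both lines 0 of 22 were called (6.62% of 42119, and 6 of 22 against 20.6% unadjusted). Known TSA response genes were also looked at, a list chosen with earlier results of these data known. With TSA in HCT116, DHRS2, CLU and CDKN1A, the latter encoding the p21 cell cycle inhibitor, rose by log2 2.23, 1.38 and 0.98 (adjusted p = 8.29e-05, 8.29e-05 and 0.000497). In RKO the same genes gave 0.72, 0.74 and 0.35 and did not pass (adjusted p = 0.613, 0.0971 and 0.555), and over both lines all 3 passed. With no variance trend these calls too were lost. DHRS2 was not particular to TSA, since it also rose under 5-aza-dC in HCT116 (log2 2.82, adjusted p = 4.80e-06), while CLU and CDKN1A did not pass there. Without the 2 disputed RKO arrays 0 of 14 members passed for TSA in RKO and 0 of 22 over both lines.

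**Figure D3:**
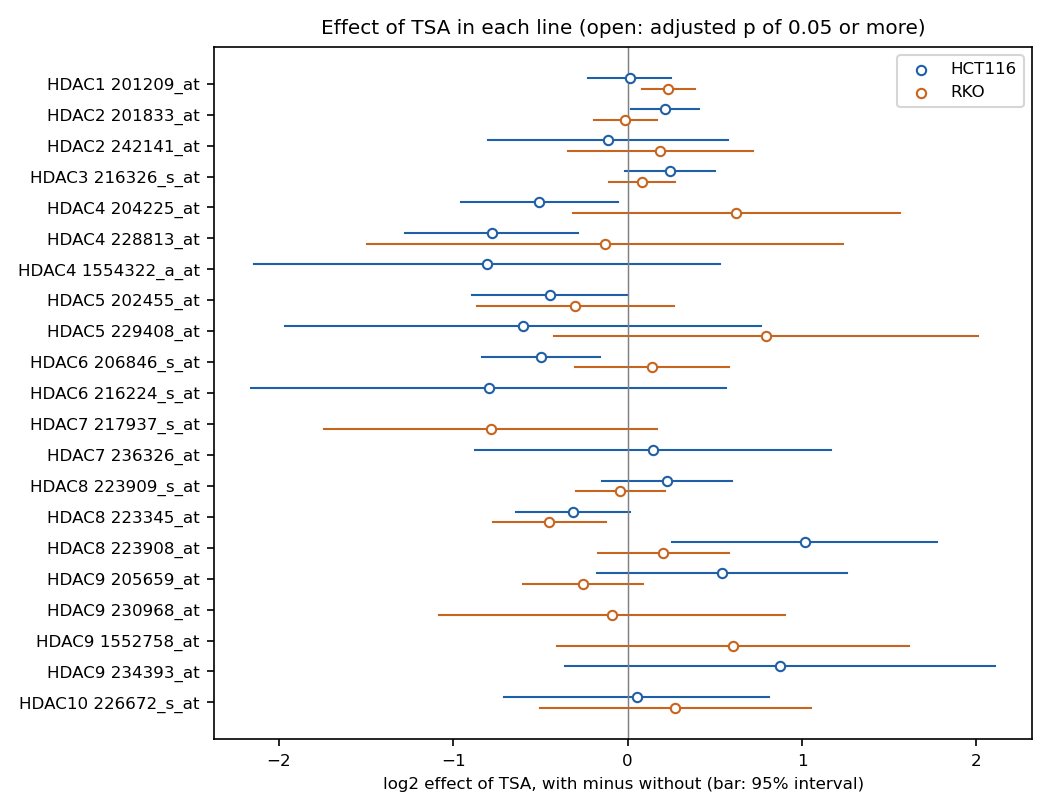
Log2 effect of TSA (with minus without) in HCT116 (blue) and RKO (orange) for each probe set tested in that line, with 95% intervals from limma over 8 arrays per line. All points are open because none had an adjusted p under 0.05, and the intervals are narrow for HDAC1, HDAC3 and the brighter HDAC2 probe set and wide for the dim probe sets.

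HDAC1 read 22436, 23165, 22690 and 30058 in HCT116 without TSA (control, PJ-34, 5-aza-dC and PJ-34/5-aza-dC) and 27318, 24370, 22648 and 24292 in the matching arrays with TSA. The ranges overlapped, and the log2 effect was 0.01 (95% interval -0.23 to 0.25, adjusted p = 0.966). In RKO it read 12086, 12226, 11751 and 11984 without TSA, in the same order of labels, and 13781, 14910, 14091 and 13724 with TSA. All 4 RKO arrays with TSA were higher, by log2 0.23 (95% interval 0.08 to 0.38), which did not pass after adjustment over all probe sets (adjusted p = 0.225, and 0.512 without the 2 disputed RKO arrays).

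HDAC2 (201833_at) was higher with TSA in HCT116 and not in RKO, without passing the test. In HCT116 it read 11425, 10856, 10602 and 10744 without TSA and 12382, 12839, 12849 and 12600 with it, higher in 4 of 4 pairs by log2 0.22 (95% interval 0.02 to 0.41, adjusted p = 0.158). In RKO it read 6279, 5996, 5702 and 5492 without TSA and 6520, 5389, 5854 and 5535 with it, a log2 effect of -0.01 (95% interval -0.19 to 0.17), or 0.05 without the 2 disputed RKO arrays. The difference between the lines in the effect of TSA did not pass for HDAC1 (log2 -0.22, adjusted p = 0.546) or HDAC2 (log2 0.23, adjusted p = 0.487). HDAC3 gave log2 0.24 in HCT116 (adjusted p = 0.242) and 0.08 in RKO (adjusted p = 0.761). For these 3 enzymes the intervals at the probe sets named stayed in both lines within log2 -0.23 and 0.50.

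The class II probe sets with the smallest p in HCT116 were lower with TSA. HDAC4 at 228813_at read 651, 874, 565 and 555 without TSA and 437, 373, 306 and 413 with it, in the same order of conditions. All 4 arrays with TSA were below all without, a log2 effect of -0.78 (95% interval -1.28 to -0.28, adjusted p = 0.0513). HDAC4 at 204225_at also separated, with 906, 970, 982 and 778 against 748, 752, 429 and 684 (log2 -0.51, adjusted p = 0.152). HDAC6 (206846_s_at) read 1756, 1717, 1655 and 1702 without TSA and 1472, 925, 1337 and 1179 with it, a log2 effect of -0.50 (95% interval -0.84 to -0.16, adjusted p = 0.0670). These 3 probe sets were lower in 4 of 4 pairs without passing the test. The calls turned on the fit and on single arrays. With a block for each pair of arrays with and without TSA, HDAC4 228813_at and HDAC6 206846_s_at passed (adjusted p = 0.0437 and 0.0412), and with a floor of 20 HDAC4 228813_at did (adjusted p = 0.0470). Without the HCT116 TSA array both passed (log2 -0.84 and -0.59, adjusted p = 0.0460 and 0.0315), and without the HCT116 PJ-34/5-aza-dC array 3 members passed, all lower with TSA, HDAC4 228813_at (log2 -0.85, adjusted p = 0.0329) and the dim HDAC4 1554322_a_at and HDAC6 216224_s_at (log2 -1.67 and -1.60). Over the alternatives the adjusted p ran from 0.0329 to 0.335 for HDAC4 228813_at and from 0.0315 to 0.247 for HDAC6 206846_s_at.

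In RKO the same probe sets did not follow. HDAC4 gave log2 -0.13 at 228813_at (95% interval -1.49 to 1.23) and 0.62 at 204225_at (95% interval -0.31 to 1.56), and HDAC6 gave 0.14 (95% interval -0.30 to 0.58). HDAC4 228813_at was under 50, and set to 50, on 3 of 8 RKO arrays, so a fall there could hardly show. The test of the difference between the lines did not pass for either gene (HDAC4 204225_at log2 -1.13, adjusted p = 0.413, and HDAC6 206846_s_at log2 -0.64, adjusted p = 0.340), so the lines are not shown to respond differently. HDAC5 was lower by -0.44 in HCT116 (adjusted p = 0.213) and by -0.30 in RKO (adjusted p = 0.691), and HDAC7, tested at its brightest probe set in RKO only, gave -0.78 there (adjusted p = 0.499). Without the 2 disputed RKO arrays the RKO values were 0.97 for HDAC4 204225_at, 0.05 for HDAC6 206846_s_at, -0.50 for HDAC5 and -0.47 for HDAC7, with adjusted p = 0.630 to 0.977, and HDAC4 228813_at was not tested.

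**Figure D4:**
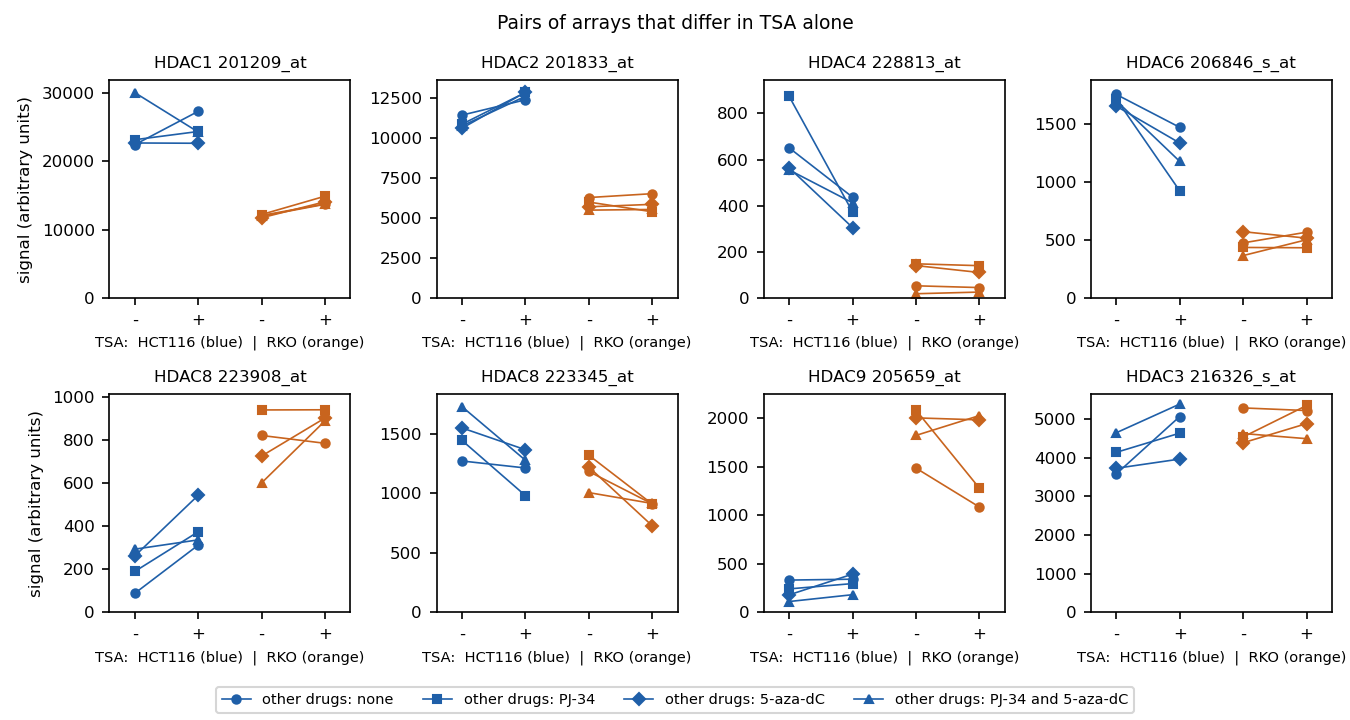
Signals of 8 probe sets in the pairs of arrays that differ in TSA alone, without (-) and with (+) the drug, on linear axes that start at 0, with HCT116 in blue, RKO in orange and a marker for the other drugs of the pair. HDAC4 228813_at and HDAC6 206846_s_at are lower with TSA in 4 of 4 HCT116 pairs, HDAC1 is higher in 4 of 4 RKO pairs, and HDAC8 223345_at is lower in 4 of 4 pairs of each line while HDAC8 223908_at is higher in 4 of 4 HCT116 pairs.

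HDAC8 again depended on the probe set. At 223908_at HCT116 read 87.9, 189, 261 and 293 without TSA and 312, 374, 543 and 336 with it, a log2 effect of 1.01 (95% interval 0.26 to 1.77, adjusted p = 0.0898), and RKO gave 0.20 (adjusted p = 0.683). At 223345_at HCT116 gave -0.31 (adjusted p = 0.232) and RKO, with 1185, 1322, 1222 and 1007 against 912, 911, 728 and 916, gave -0.45 (95% interval -0.77 to -0.13, adjusted p = 0.270). Over both lines the former was at 0.61 (adjusted p = 0.0703) and the latter at -0.38 (adjusted p = 0.0569). At the brightest HDAC8 probe set, 223909_s_at, TSA gave 0.23 in HCT116 and -0.04 in RKO, with adjusted p = 0.467 and 0.926. Without the 2 disputed RKO arrays RKO gave -0.56 at 223345_at, 0.12 at 223908_at and -0.05 at 223909_s_at (adjusted p = 0.475, 0.919 and 0.957).

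Counted over the members, arrays with and without TSA did not overlap for 5 of 18 probe sets in HCT116 (3 lower and 2 higher with TSA) and for 2 of 17 in RKO (1 each way). Over all probe sets tested the share was 13.2% in HCT116 (6.95% lower and 6.26% higher with TSA) and 7.33% in RKO (4.38% lower and 2.95% higher). By gene, the median log2 effect of TSA was 0.05 in HCT116 and 0.04 in RKO, against -0.07 and -0.03 over all probe sets tested. HDAC9 had the smallest p for a difference of the TSA effect between the lines (log2 0.80, 0.54 in HCT116 and -0.25 in RKO, adjusted p = 0.241). That test was passed by 0 of 22 members and 0.283% of all probe sets, with 4 of 22 members and 11.9% of all at an unadjusted p under 0.05.

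The drugs that do not act on deacetylases gave the background for these effects. PJ-34 changed no member (0 of 18 in HCT116 and 0 of 17 in RKO), as it changed 0 probe sets in all by limma in either line (without the 2 disputed RKO arrays, 0 of 14 members and 0 in all in RKO), and HDAC10 in HCT116 was the only member with an unadjusted p under 0.05 (log2 0.83, adjusted p = 0.981), where 3.74% of all probe sets in HCT116 and 2.64% in RKO had one. Under 5-aza-dC 0 of 18 members passed in HCT116, where 0.744% of all probe sets did and 0 members had an unadjusted p under 0.05, against 10.6% of all. In RKO 0 of 17 passed, with 0% of all probe sets, while 2 HDAC9 probe sets had an unadjusted p under 0.05, against 5.19% of all.

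The value of HDAC9 under 5-aza-dC in RKO turned on the 2 disputed arrays. At 205659_at it read 1488 in the control, 1086 with TSA and 1280 with PJ-34/TSA, against 2006 with 5-aza-dC, 1986 with 5-aza-dC/TSA and 2030 with all 3 drugs. The array labelled PJ-34 read 2086 and the array labelled PJ-34/5-aza-dC read 1825. With all 8 arrays the log2 effect of 5-aza-dC was 0.44 (SE 0.16, adjusted p = 0.882). Without these 2 arrays it was 0.66 (adjusted p = 0.0249), where 1.96% of 31057 probe sets passed, and HDAC9 was the only member of 14 tested to do so. That fit had fewer residual degrees of freedom, and the arrays were left out for their signals at 5-aza-dC-responsive probe sets. The array labelled PJ-34/5-aza-dC resembled the control at those, but its HDAC9 signal of 1825 was above the control. In HCT116 HDAC9 205659_at read 333, 242, 342 and 297 without 5-aza-dC and 180, 111, 394 and 182 with it (log2 -0.63, 95% interval -1.34 to 0.09, adjusted p = 0.540). The difference between the lines in the effect of 5-aza-dC was not tested. No methylation was measured here, and a link between the CpG dinucleotides of the HDAC9 window and these values was not tested.

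Of 81 partners and related genes of the deacetylases tested in HCT116, 11 passed for TSA, but these calls depended on the fit. The count was 0 with no variance trend, 1 (MEF2C) with no filter on low signals, 17 with a block for each pair of arrays with and without TSA, and 2 to 16 when 1 HCT116 array was left out, with 2 (BRMS1 and MEF2C) without the control or the PJ-34 array. All counts below take each gene at its brightest probe set, and in HCT116 they stand beside the 8.99% of all probe sets that passed, a share that takes in dimmer probe sets. Of 12 SIN3 genes tested in HCT116, BRMS1 rose (log2 1.10, adjusted p = 0.00119) and ING1 and ARID4B fell (log2 -0.65 and -0.67). BRMS1 read 2780 to 3108 with TSA and 1183 to 1725 without it in HCT116, and 2367 to 2506 against 1944 to 2531 in RKO. Of 7 CoREST genes, the zinc finger protein ZMYM2 (log2 -1.11), the scaffold RCOR1 (log2 -0.51) and HMG20B (log2 -0.40) fell in HCT116 with adjusted p = 0.0154, 0.0174 and 0.0380. Of 3 genes of the mitotic deacetylase complex MiDAC, TRERF1 fell (log2 -0.66, adjusted p = 0.0423). None of 10 NuRD genes, 3 NCoR and SMRT genes, 12 histone acetyltransferases, 9 acetyl-lysine readers and 8 class III and IV deacetylases passed.

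Of 17 partners of class IIa enzymes tested in HCT116, the transcription factor MEF2C (log2 1.17, adjusted p = 0.00117) and the 14-3-3 genes YWHAH (log2 0.53) and SFN (log2 0.58) rose, and MEF2A fell (log2 -0.59). MEF2C read 1700 to 2343 with TSA and 676 to 1155 without it in HCT116, and lay under 150 on every RKO array. In RKO no gene of these lists that was tested passed, the smallest adjusted p being that of ARID4B (0.164, log2 -0.48). MEF2C and CAMK4, both of the class IIa partners, lacked the signal for a test there. Over both lines, where 6.62% of all passed, ARID4B (log2 -0.58), ZMYM2 (log2 -0.75), RCOR1 (log2 -0.33), RCOR3 (log2 -0.45), TBL1XR1 (log2 -0.32), MEF2A (log2 -0.42) and the reader BPTF (log2 -0.36) fell, and BRMS1 (log2 0.59), SFN (log2 0.40) and YWHAB (log2 0.24) rose. Without the 2 disputed RKO arrays ARID4B alone of the 81 passed over both lines, where 0.728% of all did. The count over both lines was 0 with no variance trend, 2 with no filter on low signals and 3 to 14 when 1 array was left out. BRMS1 passed the test of a difference of the TSA effect between the lines, but not with a floor of 20 or 100, no filter or no variance trend.

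Between the lines the same lists were mixed in direction, as were the deacetylases. Of the 81 genes 50 passed, and 46 without the 2 disputed RKO arrays. All 12 histone acetyltransferases passed, 6 higher in HCT116 (KAT8, log2 1.24) and 6 higher in RKO (KAT2B, log2 -1.81, KAT2A, log2 -1.01, and KAT6A, log2 -0.76), against 43.8% of all probe sets tested. That share takes in dim probe sets, while each gene here stood at its brightest one, so the counts and the share are unlike measures. Of 17 class IIa partners 11 were higher in HCT116, among them MEF2C (log2 4.58), CAMK2D (log2 2.35) and SFN (log2 1.22). Another 3 were higher in RKO, among them the kinase SIK1 (log2 -1.35). MEF2C and CAMK4 lacked the signal required for testing in RKO and entered this comparison through their HCT116 arrays. The size of the MEF2C difference may depend on the floor of 50. SIN3 genes split 5 to 2 of 12 (ING1, log2 0.96, and SAP30, log2 -1.33), NuRD genes 3 to 2 of 10 (MTA1, log2 0.62, and CHD3, log2 -0.67) and CoREST genes 2 to 1 of 7, with HMG20B (log2 1.54) and the demethylase KDM1A (log2 0.78) higher in HCT116. GPS2 and TBL1X of 3 NCoR and SMRT genes, and DNTTIP1 of 3 MiDAC genes, were higher in HCT116. Of the class III and IV deacetylases, SIRT5 (log2 1.14) and HDAC11 (log2 0.81) were higher in HCT116 and the other 6 did not pass. Readers of acetyl-lysine split 2 to 2 of 9, with BRPF1 (log2 -0.77) higher in RKO and BRD1 (log2 0.69) higher in HCT116.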

How the data were processed

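RNA of 16 samples was measured on Affymetrix U133 Plus 2.0 arrays. The authors deposited a linear signal intensity per probe set, which GCOS had scaled on each array (its version is not stated in the sources used here), and the trimmed mean was 1000.14 to 1000.16 on every array. Detection calls were not used here. Gene symbols came from the platform annotation, and 41097 probe sets have 1 symbol, 1801 several and 11777 none here. The members and the gene lists were chosen with earlier results of these data known, and genes were named by one rule, every member with all its probe sets and up to 4 genes per list by smallest p.

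After 62 control probe sets were left out, every signal below 50 was raised to 50 before log2. Probe sets with at least 100 on at least 4 of the arrays fitted were tested with limma 3.58.1 in R 4.3.3 (lmFit, eBayes with a trend), with Benjamini-Hochberg adjustment over all probe sets tested and a threshold of 0.05. Each line was fitted with a term per drug and none for drugs acting together, which left 4 residual degrees of freedom. All 16 arrays were fitted with terms for line, drugs, pairs of drugs and line by drug, which left 5. For counts of genes, a gene stood at its brightest probe set. The number of arrays limits the precision. In all, 25 alternatives were run.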

Additional observations from a re-analysis of the deposited data

Results flagged for a closer look

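For the brightest probe set of each gene, the 8 arrays of a line and its 4 arrays with and 4 without TSA were searched for an array far from the rest, 60 groups in all, of which chance would mark about 1 in 20. There were 3 such arrays. HDAC1 read 30058 on the HCT116 PJ-34/5-aza-dC array, while the other 3 HCT116 arrays without TSA lay at 22436 to 23165, and without that array the log2 effect of TSA on HDAC1 in HCT116 was 0.13 (adjusted p = 0.399). HDAC7 read 135 on the HCT116 PJ-34/TSA array, against 23.6 to 41.6 on the other arrays with TSA, all of them near the array background. HDAC7 read 45.9 on the RKO array with all 3 drugs, against 202 to 306 on the other 7 RKO arrays.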

How the results depend on the processing

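Of 12 member probe sets called between the lines, the alternatives gave 10 to 13, and HDAC1, HDAC2 (201833_at), HDAC4 (204225_at and 228813_at), HDAC5, HDAC6 (206846_s_at), HDAC8 (223909_s_at and 223908_at) and HDAC9 (205659_at) passed under all 23 that could be fitted. HDAC6 216224_s_at did not pass with no filter on low signals or without the RKO control, PJ-34/TSA, 5-aza-dC/TSA or PJ-34/5-aza-dC/TSA array (adjusted p = 0.0544 to 0.0779). HDAC3 passed without the TSA array of either line (log2 -0.20, adjusted p = 0.0430 and 0.0305), and HDAC4 1554322_a_at without the array labelled PJ-34/5-aza-dC of either line. HDAC9 1552758_at passed with no variance trend (adjusted p = 0.0494). No call changed its direction under any alternative.

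The count of members called for TSA in HCT116, 0, became 1 with a floor of 20 (HDAC4 228813_at, adjusted p = 0.0470), 1 with all 16 arrays in one fit (HDAC8 223908_at, adjusted p = 0.0273) and 2 with a block for each pair of arrays with and without TSA (HDAC4 228813_at and HDAC6 206846_s_at). Leaving out 1 array gave 0 to 3, with 2 without the TSA array (the same 2 probe sets) and 3 without the PJ-34/5-aza-dC array (HDAC4 228813_at and 1554322_a_at and HDAC6 216224_s_at, all lower with TSA). Over both lines the count of 0 became 1 with quantile normalization (HDAC8 223908_at) and 1 with no terms for pairs of drugs (HDAC8 223345_at), and leaving out 1 array gave 0 to 2. For 5-aza-dC in RKO it became 1 without the 2 disputed RKO arrays (HDAC9). In RKO no alternative gave a member called for TSA. The cause of these changes was not tested. With no variance trend, no probe set of all passed for TSA in either line. The block for pairs matches arrays by their other drugs, since all arrays are numbered replicate 1 and this number pairs nothing. Probe sets near the array background limit what can be seen for HDAC7, HDAC10 and most of HDAC9.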
